A study of Mus musculus with 7 samples.

Results

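The genes described here encode the proteins of the cytosolic ribosome, taken as all symbols of the array annotation that start with Rpl or Rps and a digit, together with Rpsa and Rplp0 to Rplp2, without the Rps6k kinases, Rps27l and pseudogenes. The rule found 65 genes among 16590 gene symbols, and 83 of the 25697 probes on the array belonged to them. One of the 65, Rps19bp1, encodes a nucleolar protein that binds Rps19 and is not itself a ribosomal protein, so it was counted apart. That left 64 genes, 40 of the large subunit and 24 of the small subunit. Transcript levels were measured in megakaryocyte-erythroid progenitors, the bone marrow cells that give rise to platelets and red blood cells, of female C57BL/6 mice. The labels name 3 samples as double knockout, from mice without Ssb1 and Ssb2 (gene symbols Nabp2 and Nabp1, single-stranded DNA binding proteins of DNA repair), and 4 as control, from wild-type mice. Sorting took lineage-low, c-Kit+, Sca-1-, CD34-low and CD16/32-low cells. The labels do not state age, the deleted alleles, how deletion was brought about or how many mice stand behind a sample, so p-values measure the spread between these samples, which may be partly technical.

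A ribosome joins a small subunit, which reads the message, to a large subunit, which forms the peptide bond and guides the new chain out through a tunnel. The messages for its proteins are among the most abundant of growing cells, and most start with a terminal oligopyrimidine tract, a run of C and U that places their translation under control of the kinase mTOR and the RNA-binding protein Larp1. Red cell progenitors depend strongly on ribosome supply: in humans, loss of one copy of any of several ribosomal protein genes causes Diamond-Blackfan anaemia. Surplus Rpl5 and Rpl11 bind Mdm2 and thereby stabilise p53.

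The start sites of the members the results turn on are shown because of the pyrimidine tract described above. Each line below gives the 30 bases from 10 before the annotated start to 20 from the start onward, on the strand of the gene, from RefSeq on build GRCm38.p6. Capitals mark the longest run of C and T in that window.
Rpl14 (chr9:120571507-120571536, plus strand): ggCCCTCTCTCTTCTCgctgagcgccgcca
Rpl13a (chr7:45128726-45128755, minus strand): cctgcgacaagaCCTCCTCCTTTCCCaggc
Rps24 (chr14:24490668-24490697, plus strand): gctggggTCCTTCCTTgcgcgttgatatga
Rplp0 (chr5:115559457-115559486, plus strand): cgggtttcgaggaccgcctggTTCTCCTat
Rpl36al (chr12:69184048-69184077, minus strand): ccgtcgctcaggttcagttccgaCTTCCgc
Rpl7l1 (chr17:46782637-46782666, minus strand): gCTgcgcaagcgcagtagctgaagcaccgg
Rps19bp1 (chr15:80264287-80264316, minus strand): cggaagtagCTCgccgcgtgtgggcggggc
The run was 14 bases long in Rpl14 and in Rpl13a, and 2 bases in Rpl7l1. Of the 65 members, 56 had a start in the table. Leaving out paralogs, retrocopies and Rps19bp1, 20 of 49 members (40.8%) held a run of at least 8 letters that were each C or T at one of their starts, searched on the strand of the gene only, against 13% of all 27025 genes in the table. Such a run is a description of these letters, and annotated starts can lie some bases from the real ones. The members lay on 18 chromosomes.

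The array set limits on what could be seen of these genes. Typical member signals lay in the upper range of their array. The median signal over members was 24270 to 25259 on the knockout arrays and 21283 to 23937 on the control arrays, where the brightest probe of an array read 31154 to 36961. That brightest probe was itself a member on knockout array 2 (Rps4x), knockout array 3 (Rpl27) and control arrays 2 and 4 (Rps4x). The upper limit of the scale was not analysed here. Of the 100 brightest probes on each array, 39 to 43 were ribosomal protein probes. After the filter on dim probes (detection p under 0.05 on at least 3 arrays), 57 ribosomal protein genes were measured, 35 large and 22 small, and 56 of them were detected on all 7 arrays. Rpsa, the laminin receptor homologue of the small subunit, was the exception, with 2 of 3 knockout and 2 of 4 control arrays. The other 7 members had no probe that passed, namely Rpl6, Rpl17, Rplp2, Rps23, the retrocopy Rps23rg1 and the tissue-restricted paralogs Rpl3l and Rpl39l. Rpl11 was not analysed here.

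The knockout arrays were the brighter group, with a mean signal over all probes of 651 to 670 against 443 to 615 on the control arrays. Nabp2, a deleted gene, had a log2 change of -2.04 (SE 0.186, adjusted p = 0.000203), and Nabp1 had a single probe, below the detection threshold throughout. Of 10 measured progenitor markers 3 rose and 0 fell, namely Itga2b at 1.99 (adjusted p = 0.00133), Gata2 at 1.605 (adjusted p = 0.000812) and Nfe2 at 0.61 (adjusted p = 0.00461). The erythroid regulators Gata1 and Klf1 stood at -0.48 and -0.32 (adjusted p = 0.0524 and 0.0522), and Epor and Tal1 at 0.0276 and 0.0346 (adjusted p = 0.877 and 0.860), all 4 detected on all 7 arrays. Of the sorting markers, Fcgr2b was at 0.52 (adjusted p = 0.0305), detected on 3 knockout and 0 control arrays, Cd34 at -0.37 (adjusted p = 0.134), and Kit and Ly6a were not analysed here. B-lineage markers moved with the groups: all 6 measured markers of 10 listed fell, and their summed level was 215 to 330 on knockout and 958 to 2117 on control arrays. Of 10 measured neutrophil and monocyte markers 4 rose and 1 fell, with summed levels of 1864 to 3622 and 1001 to 1981, and of 2 measured mast cell markers 1 rose. The part of other cells in the results below was not tested. In bulk samples, fewer cells of a type and less RNA per cell cannot be told apart.

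Few ribosomal protein genes were called between double knockout and control after quantile normalization, in which every array receives the same distribution of values. Of 57 measured, 1 rose and 3 fell, or 7.02%, where 27.2% of all 7547 genes tested were called in either direction (14.4% higher and 12.8% lower). Without the paralogs, 0 of 54 were called higher and 2 lower (3.70%). In this fit calls were rarer among bright genes. Above a mean level of 13, 1 of 45 members (2.22%) and 21 of all 213 genes, members included (9.86%), were called. Of the 168 other genes there, 9 were called higher and 11 lower. Of the 12 dimmer members, 3 (25%) were called. Without background correction, 25 of those 168 other genes were called higher and 30 lower, where 30.1% of all genes were called. Of the 45 bright members, 2 were then higher and 1 lower. With background correction and quantile normalization, the members' median log2 change was -0.0512 against 0.0114 over all genes. The interquartile range of the members ran from -0.141 to 0.0718. The members ranged from -0.67 for Rpl14 to 0.47 for Rps15a, so none reached a change of 2-fold in this fit. Both were dim, with double knockout and control means of 6.996 and 7.66 for Rpl14 and of 7.34 and 6.87 for Rps15a. The 95% interval of the change lay wholly between -0.5 and 0.5 for 39 members (68.4%), against 26.9% of all genes. Above level 13 this held for 37 of 45 members (82.2%) and for 62.0% of all genes, these members included. Of the 12 dimmer members, 2 (16.7%) had such an interval. The median standard error was 0.124 for the members and 0.151 for all genes. The values of the 2 groups did not overlap for 8 members (14.0%), 2 higher and 6 lower, against 38.5% of all genes (20.3% higher and 18.1% lower).

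**Figure D1:**
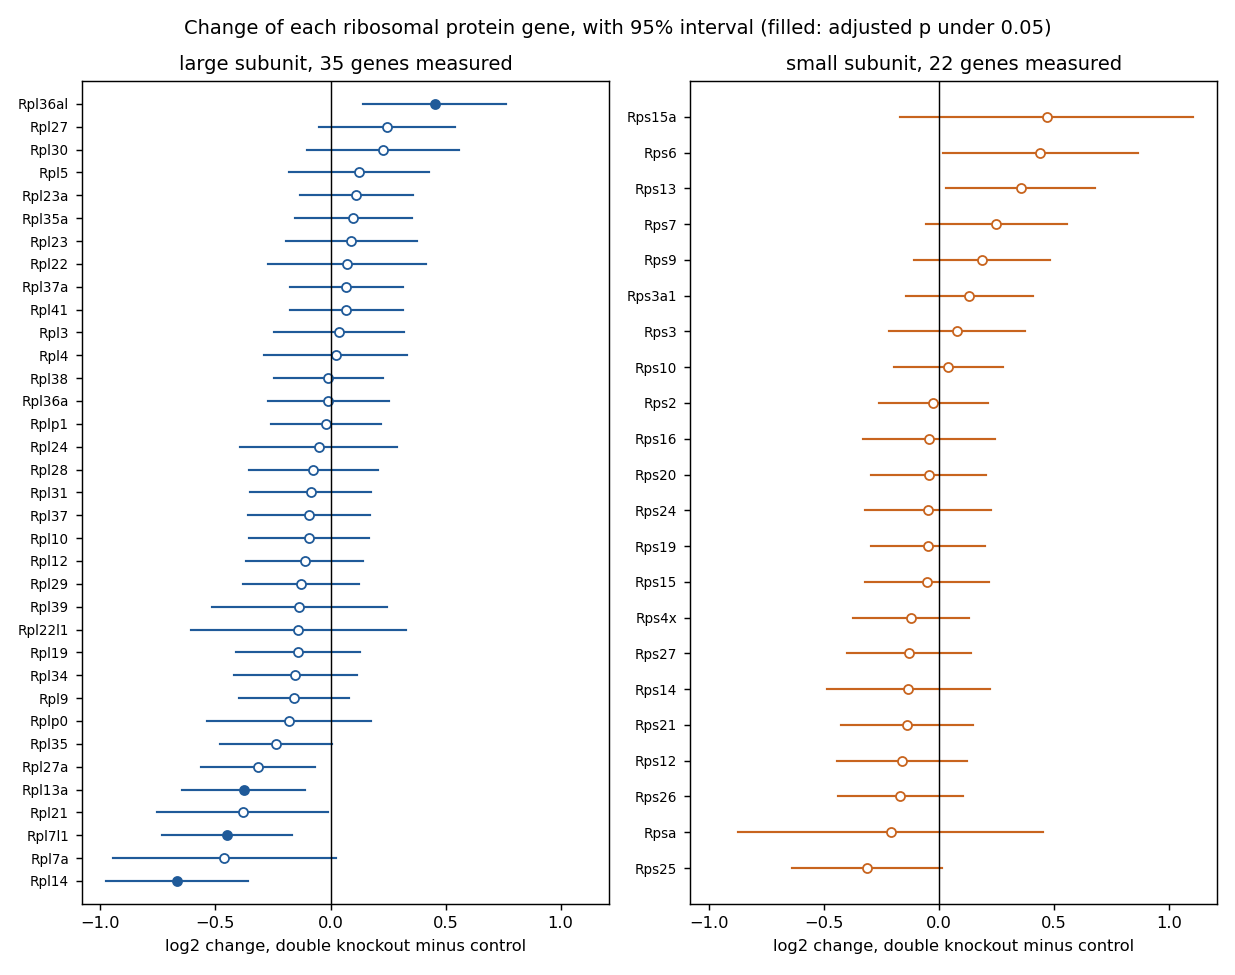
Log2 change of each measured ribosomal protein gene between 3 double knockout and 4 control arrays (horizontal axis), by subunit, with its 95% interval as a line and filled points for adjusted p under 0.05. Most intervals cross 0, and the 4 filled points, Rpl14, Rpl7l1, Rpl13a and Rpl36al, all belong to the large subunit.

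All 4 genes called in this fit were of the large subunit. Rpl14, a protein of the outer face of that subunit, had the lowest change among the 57 genes when each was read by its brightest probe after quantile normalization. Its normalized log2 intensities were 6.82, 7.26 and 6.92 on the knockout arrays and 7.68, 7.52, 7.70 and 7.75 on the control arrays. The groups did not overlap, with knockout array 2 nearest to the controls. The log2 change was -0.67 (SE 0.138, adjusted p = 0.00888), a 1.59-fold difference, and the call held in all 7 fits that each left out 1 array (adjusted p 0.00813 to 0.0420). The change was -0.0294 (adjusted p = 0.928) when arrays were scaled to the same median over all probes, and -0.37 without background correction, where it passed (adjusted p = 0.00643).

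Rpl13a, which is widely used as a reference gene in expression studies and is also known as a regulator of translation in interferon-treated human monocytes, was lower in the double knockout. It read 12.49, 12.69 and 12.47 on the knockout arrays and 12.93, 12.83, 13.06 and 12.89 on the control arrays. The groups did not overlap, and knockout array 2 was the closest to the controls. The log2 change was -0.38 (SE 0.119, adjusted p = 0.0428). The call held without knockout array 2 (adjusted p = 0.0461) and was lost without any other single array, at adjusted p up to 0.150. The change was -0.0584 (adjusted p = 0.854) under scaling to the median of all probes, and the call was also lost under cyclic loess (adjusted p = 0.0577).

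Rpl7l1, a relative of Rpl7 that acts in the assembly of the large subunit, read 10.07, 10.15 and 10.25 on the knockout arrays and 10.61, 10.39, 10.70 and 10.72 on the control arrays. The knockout arrays were again the lower ones without overlap. The log2 change was -0.45 (SE 0.126, adjusted p = 0.0277), and it turned to 0.11 (adjusted p = 0.708) under scaling to the median of all probes. It kept its call without control array 1 or 2 and lost it without each of the other 5 arrays (adjusted p up to 0.0994). Its dimmer probe stood at -0.15 (SE 0.140, adjusted p over the kept probes = 0.462), and with its probes averaged the change was -0.30 (adjusted p = 0.0737).

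Rpl36al, a near-identical intronless relative of Rpl36a whose probe may bind both messages, was the member that rose. It read 14.58, 14.50 and 14.45 on the knockout arrays and 14.18, 14.25, 13.78 and 14.02 on the control arrays. All knockout arrays lay above all controls. The log2 change was 0.45 (SE 0.138, adjusted p = 0.0375), and it turned to -0.0731 (adjusted p = 0.797) under scaling to the median of the detected probes. It kept its call without control array 1 or 2 and lost it without each of the other 5 arrays (adjusted p up to 0.119). Rpl36a itself stood at -0.0098 (SE 0.117, adjusted p = 0.957).

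Rps19bp1, the Rps19 binding protein left out of the counts above, read 7.60, 7.32 and 7.74 on the knockout arrays and 8.72, 8.12, 8.21 and 7.77 on the control arrays. The groups were separated by a narrow margin between knockout array 3 and control array 4. The log2 change was -0.65 (SE 0.211, adjusted p = 0.0466). It was 0.0095 (adjusted p = 0.977) under scaling to the median of all probes, and the call was lost without any single array except control array 4 (adjusted p up to 0.149).

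**Figure D2:**
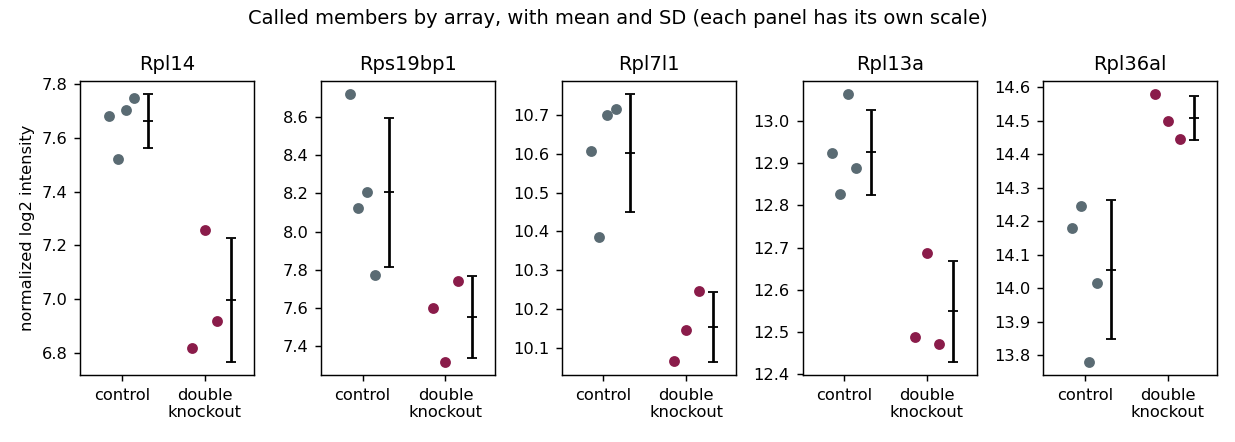
Normalized log2 intensity on each array (points) with group mean and SD (bars) for the 5 members called between double knockout (n = 3) and control (n = 4), each panel on its own scale. The knockout arrays lie below all controls for Rpl14, Rps19bp1, Rpl7l1 and Rpl13a and above them for Rpl36al.

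The subunits differed little from each other. The 35 large subunit genes had a median log2 change of -0.0858, with 1 higher and 3 lower, and the 22 small subunit genes a median of -0.0457, with 0 called in either direction by limma and 2 at an unadjusted p under 0.05. Those were Rps6, the substrate of the kinases downstream of mTOR, at 0.44 (SE 0.188, adjusted p = 0.110) and Rps13 at 0.36 (SE 0.145, adjusted p = 0.0957). Rps13 was called higher without background correction (adjusted p = 0.0373) and with a variance trend and robust fitting (adjusted p = 0.0226). The median of the large minus that of the small subunit was -0.0401. It was 0.0831 under both median scalings, which shift all genes of an array equally and so cannot differ in this value. Relative to the control mean, the median of the large subunit was -0.0908, -0.0668 and -0.0468 on the knockout arrays and 0.00760, 0.0153, 0.0545 and -0.0335 on the control arrays. The median of the small subunit was -0.0172, -0.0169 and -0.0285 against -0.0293, 0.0274, -0.00677 and -0.0199. The 2 groups overlapped for the small subunit and did not for the large one. These are medians over members and were not tested. Calls by subunit depended on the scaling. With arrays scaled to the median of detected probes, 18 of 35 large and 14 of 22 small subunit genes were called lower. Of all genes, 23.6% were called lower there.

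Most members with roles in disease or at named places of the ribosome were not called. Of the 19 genes listed for Diamond-Blackfan anaemia, 12 were measured. Read by their brightest probes, 0 were called by limma, with 0 at an unadjusted p under 0.05. All of them but Rps15a lay above level 13, where 9.86% of all genes, members included, were called with background correction. The smallest p among them were those of Rpl35, a protein at the exit of the peptide tunnel, at -0.24 (SE 0.109, adjusted p = 0.135) and Rpl27 at 0.25 (SE 0.132, adjusted p = 0.194). Rpl35 was called lower under 4 other settings, given below. Rps19, the gene most often mutated in that disease, stood at -0.0476 (SE 0.111, 95% interval -0.296 to 0.201, adjusted p = 0.770). Its values were 14.68, 14.49 and 14.54 on the knockout arrays and 14.60, 14.55, 14.66 and 14.65 on the control arrays, which overlap. These came from its brightest probe. The dimmer Rps19 probe stood at -0.45 (SE 0.191, adjusted p over the kept probes = 0.111). Rps14, whose loss contributes to the anaemia of the human syndrome with a deletion on the long arm of chromosome 5, stood at -0.13 (SE 0.158, adjusted p = 0.559).

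Of 8 genes at the rim of the exit tunnel, 6 were measured and 0 called, between -0.24 for Rpl35 and 0.11 for Rpl23a. All of them but Rpl22 lay above level 13, where 9.86% of all genes, members included, were called with background correction. The knockout values of Rpl35, at 14.48, 14.59 and 14.52, were all below the control values of 14.75, 14.72, 14.87 and 14.73, although the difference did not pass the threshold in this fit. Rpl35 was called lower without background correction (adjusted p = 0.0366) and with a variance trend and robust fitting (adjusted p = 0.0385). It was also called lower in the processed table (adjusted p = 0.0242) and under scaling to detected probes (adjusted p = 0.0140). In 14 of the 18 alternatives it was not called. Rpl19, the next by p, stood at -0.14 (SE 0.120, adjusted p = 0.410). Of 14 genes of the head of the small subunit, 8 were measured and 0 called, and all 8 also lay above level 13. They ran from -0.31 for Rps25 (SE 0.145, adjusted p = 0.136), a protein needed by some viral internal ribosome entry sites, to 0.0782 for Rps3. Rps12, also of the head, stood at -0.16 (SE 0.126, adjusted p = 0.377).

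Of the stalk that recruits translation factors, Rplp0 stood at -0.18 (SE 0.159, adjusted p = 0.422) and Rplp1 at -0.0208 (SE 0.106, adjusted p = 0.896), and Rplp2 was below background. Rpl5, the partner of Rpl11 in binding Mdm2, stood at 0.12 (SE 0.135, adjusted p = 0.531). Rpl22l1, a paralog that Rpl22 represses in mice, stood at -0.14 (SE 0.208, adjusted p = 0.643) and Rpl22 at 0.0718 (SE 0.154, adjusted p = 0.750). Rpl22l1 read 9.38, 9.55 and 9.26 on the knockout arrays and 10.03, 9.71, 9.19 and 9.24 on the control arrays, with more spread among the controls than between the groups.

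Probes of the same gene could differ. Of 72 ribosomal protein probes that passed the filter, 1 was called higher and 5 lower in a fit over all 10091 such probes, which is 8.33% against 26% of all (13.3% higher and 12.7% lower). The only probe of Rpl13a was not called in that fit (adjusted p over the kept probes = 0.0503). Among 13 members with several such probes, 7 had all probes on the same side of 0. In 9 of the 13 every dimmer probe had a lower log2 change than the brightest probe of its gene. Rps24, a small subunit protein whose gene is mutated in Diamond-Blackfan anaemia, gave the widest gap. Its brightest probe stood at -0.0475 (SE 0.126, adjusted p over the kept probes = 0.803).

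The dimmer Rps24 probe read 10.25, 10.002 and 10.07 on the knockout arrays and 11.23, 10.93, 10.89 and 10.84 on the control arrays. It was lower in the double knockout without overlap, at -0.86 (SE 0.139, adjusted p over the kept probes = 0.00362). With the Rps24 probes averaged the gene was called lower, at -0.45 (adjusted p = 0.0155). The dimmer probe of Rplp0, a common reference gene, read 6.42, 6.16 and 6.27 on knockout and 6.68, 6.88, 6.64 and 7.07 on control arrays, a change of -0.53 (SE 0.145, adjusted p over the kept probes = 0.0257). The dimmer probe of Rpl27a, with overlapping groups, was at -0.63 (SE 0.205, adjusted p over the kept probes = 0.0498) and its brighter probe at -0.32 (SE 0.115, adjusted p over the kept probes = 0.0710). The parts of the messages these probes bind were not analysed here. A family median built on the brightest probes therefore leaves out 3 dimmer probes that were called lower.

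**Figure D3:**
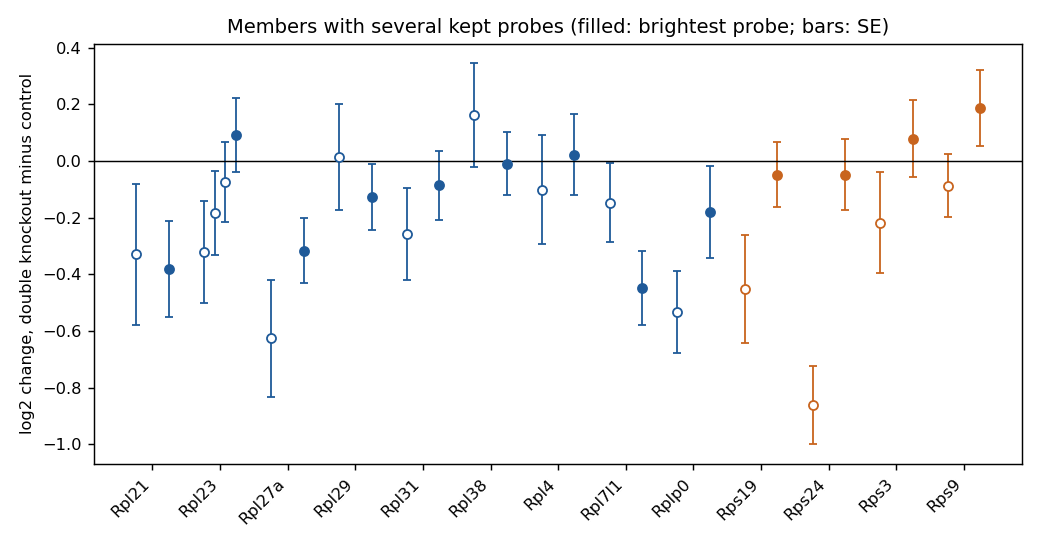
Log2 change (points) with SE (bars) for each kept probe of the 13 members with several kept probes, ordered within a gene from dimmest to brightest, with the brightest filled. Blue marks the large and orange the small subunit. The dimmer probes of Rps24, Rplp0 and Rpl27a lie furthest below 0.

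The level of the whole family depended on how the arrays were scaled. Before any scaling, the median of the members relative to the control mean, minus the same median over all genes, was -0.483, -0.394 and -0.442 on the knockout arrays. On control arrays 1, 2 and 3 it was 0.156, 0.0897 and 0.140, and on control array 4 it was -0.431. Control array 4 thus lay within the range of the knockout arrays. It was also the brightest control, with a mean signal of 615 against 443 to 528 on the other controls. The share of the background-corrected signal held by member probes followed the same split, at 8.87%, 9.16% and 9.34% on the knockout arrays, 8.998% on control array 4 and 11.5%, 11.6% and 12.5% on control arrays 1, 2 and 3. The 3 knockout arrays and control array 4 were the 4 brightest of the 7.

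The same split was seen in other bright genes. The 168 other genes with a mean level above 13, the range of 45 of the members, stood at -0.348, -0.261 and -0.340 relative to all genes on the knockout arrays, at 0.197, 0.0455 and -0.00619 on control arrays 1 to 3 and at -0.285 on control array 4. Scaling by the median of probes detected on every array left this split in the comparison. There 32 of 57 members were called lower and 0 higher, against 23.6% of all genes called lower and 10.3% higher. The members' median was then -0.60, or -0.46 relative to the median gene, which itself stood at -0.14. Among genes above level 13, 28 of 45 members (62.2%) and 81 of 168 other genes (48.2%) were called lower, with medians of -0.64 and -0.48.

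Scaling to the median of all probes moved the median gene to 0.52, and the members stood at 0.0638. Their distance of -0.46 to the median gene was necessarily unchanged, because either median scaling shifts all genes of an array equally. Here 5 members were called higher and 0 lower, where 49.9% of all genes were called higher and 1.54% lower. Among the 5 was Rps15a at 1.06 (adjusted p = 4.26e-05), which is more than 2-fold. With array brightness as a covariate beside the scaling to detected probes, the members' median was -0.0612 against -0.0526 for all genes, and 0 were called in either direction by limma, where 0.928% of all genes were called. All knockout arrays were brighter than all control arrays, so brightness and genotype cannot be cleanly told apart in that fit. Without control array 4 and without the covariate, scaling to detected probes gave 44 members lower and a median of -0.74, where 27.8% of all genes were called lower. Cyclic loess, which like quantile normalization removes shifts that go with brightness, gave a median of -0.0574, with 1 higher and 2 lower.

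**Figure D4:**
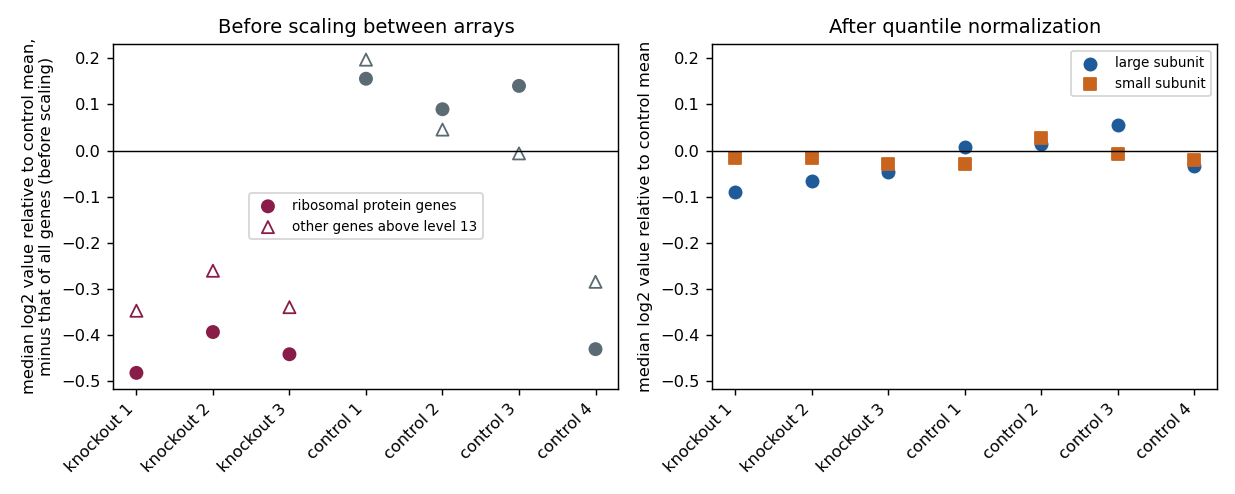
Left, the median log2 value of the 57 ribosomal protein genes (circles) and of the 168 other genes above level 13 (triangles) on each array before scaling, relative to the control mean and minus that of all genes, with knockout arrays in red and control arrays in grey. Right, the medians of the large (circles) and small (squares) subunit after quantile normalization on the same axis range. On the left, control array 4 lies with the knockout arrays at -0.431, and on the right the medians stay between -0.0908 and 0.0545.

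**Figure D5:**
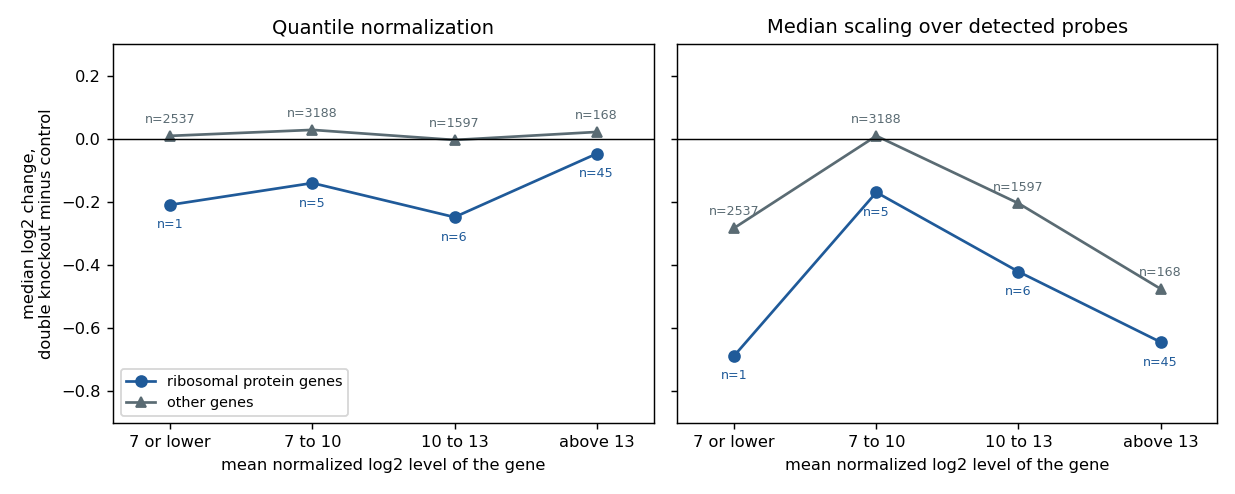
Median log2 change (vertical axis) of ribosomal protein genes and of other genes in 4 ranges of mean level (horizontal axis), after quantile normalization (left) and after median scaling over detected probes (right), with the number of genes beside each point. Other genes lie near 0 at all levels on the left and at -0.48 above level 13 on the right, where the 45 members lie at -0.64.

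Counts for other messages and regulators of the same pathway stand beside 14.4% higher and 12.8% lower among all genes. Of 16 further messages with a terminal oligopyrimidine tract, 15 were measured, 2 rose and 1 fell, with a median of 0.0606. Nap1l1, a histone chaperone, rose from control values of 11.09, 11.14, 11.14 and 11.27 to 11.79, 11.80 and 11.88 in the double knockout, without overlap. Its log2 change was 0.66 (SE 0.110, adjusted p = 0.00360), and 0.17 (adjusted p = 0.331) with its probes averaged. Pabpc1, the poly(A) binding protein, was at 0.66 (SE 0.168, adjusted p = 0.0193), a call lost under scaling to detected probes (adjusted p = 0.125) and with its probes averaged (0.25, adjusted p = 0.171). Eif3h, a subunit of initiation factor eIF3, was at -0.84 (SE 0.206, adjusted p = 0.0171), a call lost under scaling to all probes (adjusted p = 0.588). The elongation factor Eef1a1, also of that list, stood at 0.36 (SE 0.163, adjusted p = 0.133).

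Of 13 regulators of ribosomal protein synthesis, 7 were measured, 4 rose and 1 fell. Eif4ebp1, the repressor of initiation that mTOR inactivates, fell, with knockout values of 12.72, 12.53 and 12.63 below all control values of 13.20, 13.004, 13.11 and 13.11. Its log2 change was -0.48 (SE 0.114, adjusted p = 0.0144), and the call was lost under scaling to all probes (adjusted p = 0.578). Mdm2, the ubiquitin ligase of p53, was at 0.56 (SE 0.154, adjusted p = 0.0263) and Max, the partner of Myc, at 0.46 (SE 0.130, adjusted p = 0.0281). Myc, a driver of ribosome production, was at 0.85 (SE 0.255, adjusted p = 0.0346), with overlapping groups and detection on 1 of 4 control arrays. Without background correction it was at 0.26 (adjusted p = 0.0589). Mtor itself was at 0.41 (SE 0.125, adjusted p = 0.0389), with no overlap between the groups. The calls of Myc and Max were lost under scaling to detected probes (adjusted p = 0.232 and 0.0869). Leaving out 1 array ended the call in 5 of 7 fits for Myc, with adjusted p up to 0.131, and in 4 of 7 for Mdm2 and for Max, up to 0.0710 and 0.0914.

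All 9 chaperones and loaders of single ribosomal proteins were measured, with 1 higher and 2 lower, where 14.4% of all genes were higher and 12.8% lower. Rrs1, which helps to place Rpl5 and Rpl11, was at 0.62 (SE 0.152, adjusted p = 0.0172), a call lost under scaling to detected probes (adjusted p = 0.0530), while its partner Rpf2 was at -0.34 (SE 0.107, adjusted p = 0.0431). Pdcd2l, an export factor of the small subunit, was at -0.37 (SE 0.119, adjusted p = 0.0443). Under scaling to all probes Rpf2 and Pdcd2l turned to 0.11 and 0.15, the call of Rpf2 was lost in all 7 fits that left out 1 array (adjusted p 0.0586 to 0.134), and that of Pdcd2l in 6 of them (up to 0.158). Of 11 genes of ribosome rescue, 6 were measured and 0 called by limma, with 2 at an unadjusted p under 0.05: Hbs1l at 0.44 (SE 0.175, adjusted p = 0.0891) and its partner Pelo at -0.37 (SE 0.155, adjusted p = 0.105). Among ribosomal proteins outside the naming rule, Fau stood at 0.0189 (SE 0.108, adjusted p = 0.907) and Rps27l, a p53 target, at 0.33 (SE 0.147, adjusted p = 0.124).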

How the data were processed

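Per the labels, 3 double knockout and 4 control samples were hybridised to MouseRef-8 v2.0 BeadArrays in a single colour, and the submitters' processing notes name GenomeStudio. The authors deposited each probe's intensity (linear, neither background-subtracted nor scaled) with a detection p-value per array, and a processed log2 table centred per probe, whose baseline is unknown (column medians 0.00164 to 0.00513). Differences between groups in that table correlated with those of quantile-normalized log2 signals at 0.999 across probes, with a slope of 0.958, so scale and direction are those of the signals.

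With limma 3.58.1 in R 4.3.3, neqc used the detection p-values to correct the background, with an offset of 16, then quantile-normalized the 7 arrays and took log2. Probes detected at p under 0.05 on at least 3 arrays were kept (10091 with a symbol), and each of 7547 genes took its brightest kept probe. Of all probes, 23978 had 1 symbol in the annotation table and 1719 none. Groups were compared by lmFit and eBayes, with two-sided p-values adjusted by Benjamini-Hochberg across the 7547 genes and a threshold of 0.05. The number of arrays limits the precision. The procedure was tested on simulated data.

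The members and lists were chosen with earlier results of these data known. Named were the largest called changes (up to 12 in each direction), all measured stalk, Rpl5 and paralog members, called exit, head and anaemia genes, up to 4 called genes of each other pathway list (by size of change), or the 2 with the smallest p where none was called, and the deleted genes. Rps14, Rps19, Rps6, Rps13, Rpl22, Rpl36a, Rps3, Rpl23a, Rps15a, Eef1a1, Mtor and the progenitor and sorting markers were named after their values were seen. Rps23rg1 was added to the paralogs when the annotation was read.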

Additional observations from a re-analysis of the deposited data

Results flagged for a closer look

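In groups of 4 control arrays, 78 values were examined for an array that stood far from the other 3, and 6 were found, where chance alone flags about 1 in 20. Each number given here is the gap of the outlying array to its nearest neighbour divided by the range of the group. Rplp0 gave 0.893, with control array 2 at 10.20 and the others between 10.56 and 10.60. Rpl38 gave 0.861, again through control array 2, at 14.68 against 14.72 on the others. Rpl35 gave 0.841 through control array 3, at 14.87. Rpl23a gave 0.847 through control array 3, at 14.54 against 14.66 to 14.68. Rps3a1 gave 0.845 through control array 2, at 13.24 against 13.05 to 13.08. Mdm2 gave 0.834 through control array 2, at 9.87 against 9.69 to 9.72. These are bright probes with narrow ranges except for Rplp0 and Mdm2, and the cause of the gaps was not tested.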

How the results depend on the processing

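The choices tried were those of background, scaling, filter, probe, variance model, covariate and left-out array. With uncorrected background, and likewise in the processed table, 2 members rose and 5 fell, and with a variance trend and robust fitting 2 rose and 6 fell. Scaling to the median of all probes gave the following: 3884 genes changed (3768 higher, 116 lower), 5 members rose and 0 fell, the members' median was 0.0638 and the large minus small difference 0.0831. Under median scaling over detected probes (781 genes higher, 1781 lower) 0 members rose and 32 fell, the median was -0.60 and 38 member probes were called. The difference was necessarily the same 0.0831. With array brightness, which was higher on all knockout arrays, as a covariate 52 genes changed, 0 members rose or fell by limma and the median was 0.0144. Averaging the probes of each gene, the median was -0.0739. Added after the data were seen, detected-probe scaling gave a median of -0.0612 and 0 falls with array brightness as a covariate, and a median of -0.74 with 44 falls without control array 4.

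The replicate numbers did not pair the samples: deviations of same-numbered arrays correlated at -0.169, -0.0160 and 0.0277. With the replicate number as a block, 1355 genes changed and 0 members rose or fell, with a members' median of -0.0634. Control array 4 has no partner, so the block estimates equal those without it.

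Leaving out each array in turn gave 1116 to 1923 changed genes, 0 to 2 members higher, 1 to 2 lower, medians of -0.0690 to -0.0339 and differences of -0.0547 to -0.00417. Among called genes, signs turned under median scaling over all probes for Rps19bp1 (0.0095), Rpl7l1 (0.11), Pdcd2l (0.15) and Rpf2 (0.11), and over detected probes for Rpl36al (-0.0731). Fau, not called by quantile normalization, was called lower over detected probes (-0.58, adjusted p = 0.0469). Of other named genes that were not called, Rplp0 (0.38), Rplp1 (0.0098), Rpl22l1 (0.50), Rpl19 (0.10) and Pelo (0.19) turned over all probes, and Rpl5 (-0.49), Rpl27 (-0.35) and Rps27l (-0.21) over detected probes. The cause of these shifts was not tested. Signals near the upper limit of the scale would limit what the brightest probes can show, and that limit was not analysed here.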
